A study of Mus musculus with 3 samples.

Results

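The integrins and the focal adhesion proteins that bind them were described here by their transcripts in NIH3T3, a cell line of mouse fibroblasts. The 45 genes were taken by their gene name from the 55573 genes listed, each name matched 1 row, and they comprise 17 alpha subunits, 8 beta subunits and 20 adaptors, kinases and actin linkers. The data come from UMI-RNAseq, in which a random tag on each molecule lets PCR copies be removed, in 3 libraries of 1 condition (libraries 1, 2 and 3). No treatment or transgene is stated for the cells, which were grown in DMEM with fetal bovine serum and detached with trypsin before lysis. Separate cultures for the libraries are not stated in any source, and the SD over them may be technical only. Levels are in FPKM, which scales the fragments of a gene by its length in kilobases and by the library total. Comparisons between genes depend on the gene length used, and some change with the longest annotated isoform, as given below.

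Integrins are receptors of the cell surface, each made of 1 alpha and 1 beta subunit, that bind matrix proteins outside the cell. Inside the cell, talins and kindlins bind the tail of the beta subunit and switch the receptor to its active form. Further proteins then tie it to actin filaments and to kinases, and the plaque that forms is called a focal adhesion. Fibroblasts are known for large focal adhesions, whereas several integrins are known from leukocytes, platelets or epithelia.

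The library totals recovered from the FPKM steps ranged from 13959723 to 14423209 fragments. Of 12 fibroblast markers, 11 reached a mean of 1 FPKM, from Fn1 at 4377 down to S100a4 at 2.98, and Lum was listed at 0. The sample labels mention retina in their extraction text, but 0 of 12 retina markers reached 1 FPKM, and the highest, Rcvrn, had 0.363. The exact permutation test of signs used here cannot give a p below 0.25 with 3 libraries, so orders are described by whether the libraries overlap.

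Of the 45 genes, 30 (66.7%) had a mean of at least 1 FPKM, against 23.2% of all genes listed and 49.2% of the 21980 protein-coding genes. The share differed between the classes, with 7 of 17 alpha subunits, 6 of 8 beta subunits and 17 of 20 adaptors. The median level was 0.321 FPKM for alpha subunits, 7.06 for beta subunits and 68.3 for adaptors. A further 12 genes lay below 1 FPKM but above 0, and Itga4, Itgam and Fermt1 were listed at 0. Leaving out library 2 took Fermt3 below the limit and left 29 genes.

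**Figure D1:**
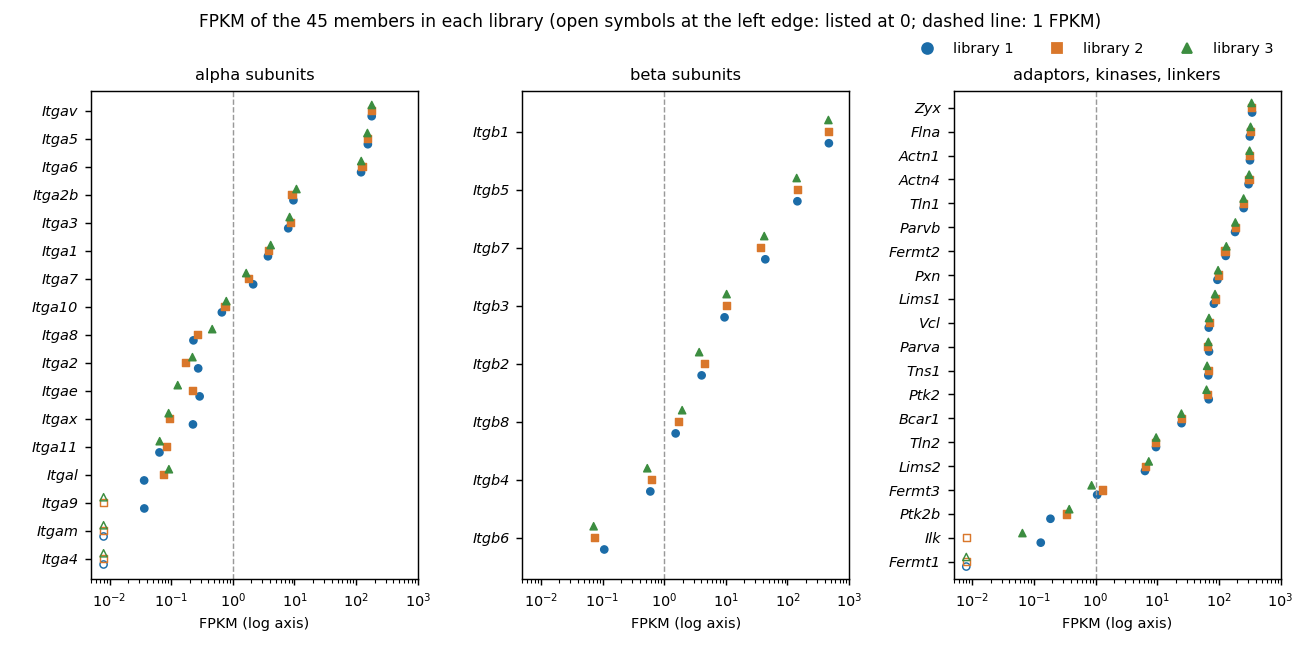
FPKM of each of the 45 genes on a log axis, with 1 symbol per library and 1 panel per class, and open symbols at the left edge for a value of 0. The libraries lie close together for genes above 10 FPKM and spread apart below 1 FPKM, and Ilk stands near the bottom of the adaptors, far below most of them.

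Among the beta subunits, Itgb1, the common partner of 12 alpha subunits, was the most abundant. It had 469.0, 459.9 and 461.1 FPKM in libraries 1, 2 and 3, with a mean of 463.3 ± 4.96 (SD, n = 3), which ranked 176 of 12905 genes with at least 1 FPKM. Its gene lies on the plus strand of GRCm38 at chr8:128685654-128733200. Itgb5, which pairs with Itgav and is known as a receptor for vitronectin, followed with 144.7, 145.1 and 140.9 FPKM and a mean of 143.6 ± 2.34 (SD, n = 3). Itgb1 thus lay 3.23-fold ± 0.0533 (SD, n = 3) above Itgb5, and their values did not overlap. Together they accounted for most of the beta transcripts, with 69.8% ± 0.0731 from Itgb1 and 21.6% ± 0.359 from Itgb5 (SD, n = 3).

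Itgb7, whose known partners are leukocyte subunits, came next with 43.7, 36.9 and 41.9 FPKM and a mean of 40.8 ± 3.52 (SD, n = 3). Itgb3, the beta subunit of the vitronectin and platelet receptors, had 9.53, 10.3 and 10.3 FPKM. Itgb2, the beta subunit of leukocyte integrins, had 4.05, 4.54 and 3.69 FPKM. Itgb8, which binds latent TGF-beta together with Itgav, had 1.53, 1.72 and 1.95 FPKM. Each of these subunits lay above the next in each library, and the ranges of neighbours were apart. Itgb4, the subunit of hemidesmosomes, had a mean of 0.581 FPKM, and Itgb6, known from epithelia, had 0.0839 FPKM from 7 fragments in all.

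Among the alpha subunits, Itgav, Itga5 and Itga6 made up 94.7% ± 0.217 (SD, n = 3) of the summed FPKM. Itgav, which recognizes the RGD motif in vitronectin and other ligands, had 178.9, 179.3 and 179.3 FPKM, with a mean of 179.2 ± 0.266 (SD, n = 3). Itga5, the classical fibronectin receptor subunit, had 154.9, 154.0 and 152.4 FPKM, with a mean of 153.8 ± 1.25 (SD, n = 3). Itga6, a laminin receptor subunit, had 120.3, 124.6 and 120.9 FPKM, with a mean of 121.9 ± 2.36 (SD, n = 3). The libraries of these genes did not overlap, but their order rests on the gene length used. Divided by the longest annotated isoform, Itga5 came first with 85.2 FPKM, followed by Itga6 with 63.2 and Itgav with 61.1.

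Below Itga6 the alpha subunits dropped by a factor of 12.4. Itga2b, the alpha subunit of the platelet fibrinogen receptor, had 9.61, 9.08 and 10.8 FPKM. Itga3, a laminin receptor subunit, had 7.92, 8.55 and 8.34 FPKM, which lay below Itga2b in each library, but above it with the longest isoform, at 4.62 against 3.15 FPKM. Itga1, a collagen receptor subunit, had 3.71, 3.80 and 4.11 FPKM, and Itga7, the laminin receptor subunit known from muscle, had 2.14, 1.79 and 1.65 FPKM. These subunits rest on few fragments compared with Itgav, from 65 per library for Itga7 to 324 for Itga3.

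The other 10 alpha subunits lay below 1 FPKM. Itga10, another collagen receptor subunit, was the highest of them with 0.663, 0.744 and 0.783 FPKM. A same-strand gene, Gm42957, covers 33.5% of its exon bases, and its part in that level was not tested. Itga8 (0.321 FPKM), Itga2 (0.222), Itgae (0.214), Itgax (0.136), Itga11 (0.0710) and Itgal (0.0678) rest on 9 to 36 fragments over all libraries. Their spread between libraries was tested only for Itga2 and Itgae, where a chi-square statistic of the fragments over the libraries stayed under its 95% limit of 5.99. Itga9 had 1 fragment, in library 1. Itga4 and Itgam were listed at 0, and 3 fragments, the limit a count of 0 allows, would correspond to at most 0.0586 and 0.0756 FPKM in 1 library, counting error only. For Itgam, 68.7% of the exon bases are shared with Gm49368 on the same strand, which was itself listed at 0.

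The summed level of the alpha subunits was 480.5 ± 2.08 FPKM (SD, n = 3), and that of the beta subunits was 664.3 ± 7.76 FPKM. The beta sum was 1.38-fold ± 0.0202 (SD, n = 3) the alpha sum. The 12 alpha subunits that pair with Itgb1 summed to 1.00, 1.03 and 1.02 times the level of Itgb1 in libraries 1, 2 and 3. The log2 ratio was 0.02 ± 0.02 (SD, n = 3), so a difference between them was not larger than the spread between libraries. Itgav lay 1.15-fold ± 0.0156 (SD, n = 3) above the sum of Itgb3, Itgb5, Itgb6 and Itgb8, its partners other than Itgb1. Itgav counts in full in both ratios, so neither divides it between Itgb1 and its other partners. Both ratios turned over with the longest isoform, to log2 values of -0.17 and -0.25.

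The subunits form 23 pairs known from textbooks, listed without regard to these data. Transcripts show neither protein nor pairing, so a pair was taken as allowed where both subunits had a mean of at least 1 FPKM. This held for 10 of the 23 pairs, and in the other 13 pairs 1 subunit reached the limit and its partner did not. Among pairs that recognize RGD ligands, 6 of 8 were allowed, among laminin receptors 3 of 4, and among collagen receptors 1 of 4. None of the 7 remaining pairs, most of them leukocyte receptors, was allowed.

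The level of the scarcer subunit orders the pairs. It was highest for Itgav/Itgb1 (179.2 FPKM, set by Itgav), Itga5/Itgb1 (153.8), Itgav/Itgb5 (143.6, set by Itgb5) and Itga6/Itgb1 (121.9). These pairs comprise receptors for fibronectin, vitronectin and laminin. A gap separated them from Itgav/Itgb3 (10.0 FPKM, set by Itgb3), Itga2b/Itgb3 (9.82) and Itga3/Itgb1 (8.27). Itga1/Itgb1 (3.87), Itga7/Itgb1 (1.86) and Itgav/Itgb8 (1.74, set by Itgb8) stood closest to the limit. The order of these pairs rests on the gene length used. With the longest isoform, Itga5/Itgb1 came first with 85.2 FPKM, followed by Itga6/Itgb1 with 63.2. Itgav/Itgb1 and Itgav/Itgb5 then both had 61.1 FPKM, set by Itgav. Itga3/Itgb1 (4.62 FPKM) then lay above Itga2b/Itgb3 (3.15), and Itgav/Itgb8 fell just below the limit, at 0.9899 FPKM.

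**Figure D2:**
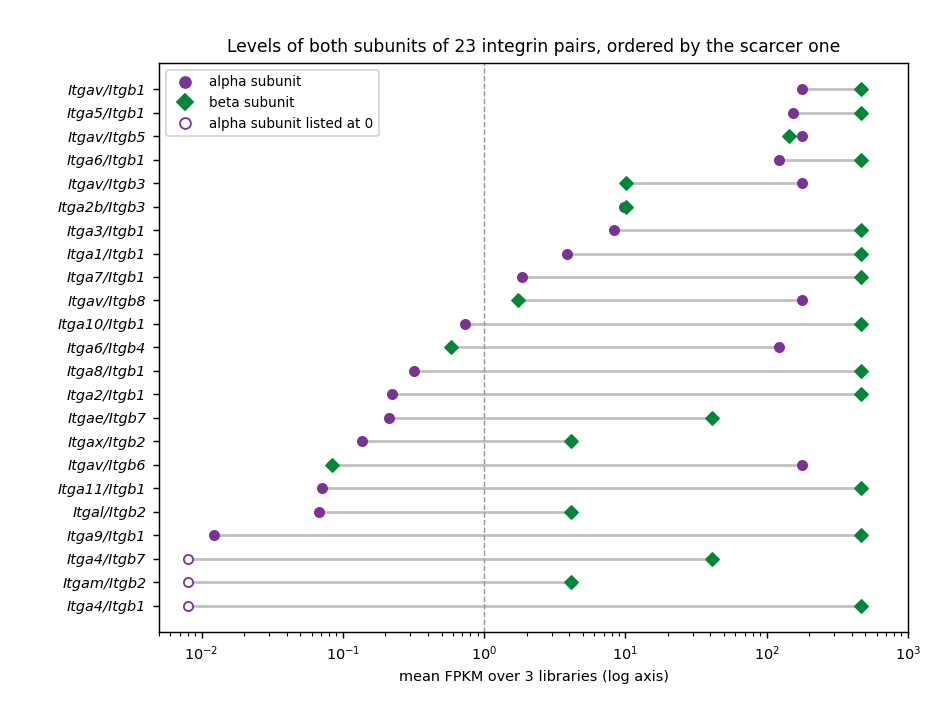
Mean FPKM over 3 libraries, on a log axis, of the alpha subunit (circles) and the beta subunit (diamonds) of 23 pairs, ordered by the scarcer subunit, with a dashed line at 1 FPKM. The upper 4 pairs have both subunits above 100 FPKM, and in all 12 pairs of Itgb1 the alpha subunit is the scarcer one.

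A few subunits known from blood cells were present without their partners or their usual cell type markers. Itgb7 had 40.8 FPKM against 0.214 FPKM for its partner Itgae (13.2 against 0.213 with the longest isoform), and its other partner Itga4 was listed at 0. Itgb2 lay 60.4-fold above its partner Itgal and 30-fold above its partner Itgax, at 0.136 FPKM, and its partner Itgam was listed at 0. Of 12 leukocyte markers 10 lay below 1 FPKM, with Ptprc, the pan-leukocyte marker CD45, at 0.0245 FPKM and Cd3e, Adgre1, Laptm5 and Cd52 listed at 0. Cd14 (17.8 FPKM) and Lyz2 (2.54) were the exceptions, and the list summed to 20.4 to 21.1 FPKM per library.

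Itga2b and Itgb3 had nearly equal means, 9.82 and 10.0 FPKM, and their libraries overlapped. With the longest isoform they were no longer near each other, at 3.15 FPKM for Itga2b and 8.81 FPKM for Itgb3. The platelet markers Pf4 and Gp1bb were listed at 0, 7 of 8 platelet markers lay below 1 FPKM, and the list summed to 1.51 to 1.75 FPKM per library. Only Ppbp reached the limit, with 1.08 FPKM. For Itgb7 and Itga2b, 0% of exon bases overlap another gene and 0% of their 75-nt words occur in a transcript of another gene. Their annotated isoforms begin at 268 nt for Itga2b and 358 nt for Itgb7, and with the longest isoform their levels were 3.15 FPKM for Itga2b and 13.2 FPKM for Itgb7. Of 12 epithelial markers 11 lay below 1 FPKM, beside the low Itgb4 and Itgb6, with Epcam listed at 0, Krt14 at 8.39 FPKM and a summed level of 8.75 to 9.16 FPKM per library.

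Among the activators, Tln1, the talin that links integrin tails to actin, had 253.2, 254.2 and 252.1 FPKM. Its paralog Tln2 had 9.559, 9.495 and 9.611 FPKM, so that Tln1 lay 26.5-fold ± 0.268 (SD, n = 3) above it. Tln1 also had the highest ratio of longest to mean isoform length, 5.05, over 8 isoforms. With the longest isoform, of 8393 nt, its level became 50.1 FPKM.

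Fermt2, the kindlin of most solid tissues, had 129.3, 125.3 and 132.2 FPKM. Fermt3, the kindlin of blood cells, had 1.06, 1.31 and 0.862 FPKM, and the ratio of Fermt2 to Fermt3 was 121.8, 95.6 and 153.4 in the same libraries. Fermt1, the epithelial kindlin, was listed at 0 in each library. With a floor of 3 fragments per library for Fermt1, Fermt2 was at least 1591-fold higher. The order of the kindlins was the same in each library.

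The 4 adaptors with the highest levels act at actin filaments. Zyx, a LIM protein of stressed actin fibers, had 346.0, 342.9 and 339.5 FPKM. Flna, which crosslinks actin and binds beta subunits, had 318.4, 328.6 and 326.9 FPKM, and the alpha-actinin Actn1 had 319.6, 311.9 and 315.4 FPKM. The values of Flna and Actn1 overlapped, so they have no order. Actn4, the other nonmuscle alpha-actinin, had 303.6, 307.6 and 310.5 FPKM. Actn1 lay above Actn4 by a factor of 1.03 ± 0.0218 (SD, n = 3), which turned to the opposite direction with the longest isoform, at 129.7 against 132.1 FPKM.

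Vcl, the vinculin that binds talin under tension, had 68.6, 69.9 and 69.2 FPKM, or 0.273 ± 0.00219 (SD, n = 3) of Tln1. Ap3m1, a gene of the opposite strand with 59.9 ± 2.11 FPKM (SD, n = 3), covers 25.5% of the exon bases of Vcl. Tns1, a tensin, had 67.5, 67.6 and 64.5 FPKM. Vcl, Parva, Tns1 and the kinase Ptk2 lay between 65.6 and 69.2 FPKM on average, and no neighbours among them were apart. With the longest isoform they were no longer near each other, at 42.25 FPKM for Vcl, 32.95 for Parva, 27.32 for Ptk2 and 18.85 for Tns1.

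The RefSeq promoters of GRCm38.p6 were searched for the CArG box, the motif of serum response factor, which is known to drive genes of the actin cytoskeleton. The motif reads alike on both strands, and 250 bases before each RefSeq start were searched. It occurred in 3 of 38 windows, which cover 32 of the 45 genes, and in 1.47% of all 32851 windows. The stretches around it are shown with the motif in capitals, 5′ to 3′ on the strand of the gene, because 2 of them belong to abundant adhesion genes and 1 to a subunit near 0.
Vcl (chr14:20929151-20929200, plus strand): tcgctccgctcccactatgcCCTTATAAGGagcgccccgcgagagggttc
Fermt2 (chr14:45530240-45530289, minus strand): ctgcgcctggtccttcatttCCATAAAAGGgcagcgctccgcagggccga
Itgb6 (chr2:60673714-60673763, minus strand): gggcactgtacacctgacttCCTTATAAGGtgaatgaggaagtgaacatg

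The motif lies 218 to 227 bases before the RefSeq start of its window for Vcl, 195 to 204 bases for Fermt2 and 41 to 50 bases for Itgb6. The window of Itgb6 belongs to an alternative start inside the gene, which GENCODE M21 places at chr2:60598292-60722643 on the minus strand. Vcl and Itgb6 hold the same 10 letters, yet they had 69.2 and 0.0839 FPKM. A match is a description of the letters only.

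Among the scaffolds, Pxn, the paxillin that recruits kinases, had 94.9, 97.7 and 97.2 FPKM. Bcar1, the scaffold p130Cas, had 24.8, 24.7 and 24.7 FPKM. Ptk2, the focal adhesion kinase, had 68.5, 65.1 and 63.1 FPKM, whereas its paralog Ptk2b had 0.186, 0.335 and 0.374 FPKM. The ratio of Ptk2 to Ptk2b was 369.3, 194.0 and 168.8, and Ptk2b rests on 8, 14 and 16 fragments. Ptk2 was thus the predominant transcript of the pair in each library.

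The complex of ILK, PINCH and parvin joins integrins to actin, and ILK is its core. The PINCH gene Lims1 had 83.1, 87.9 and 86.7 FPKM, which was 12.9-fold ± 0.918 (SD, n = 3) above Lims2, at 6.33, 6.43 and 7.30 FPKM. Parvb had 183.3, 184.2 and 185.3 FPKM, and Parva had 69.3, 65.1 and 67.6 FPKM, or 0.365 ± 0.0124 (SD, n = 3) of Parvb. The ratio depends on length, with a log2 value of -1.45 as deposited, -0.90 with the longest isoform and -0.26 for fragments not divided by length. Ilk itself had 0.129, 0 and 0.0651 FPKM, from 2, 0 and 1 fragments. Set to 3 fragments in each library, Ilk would be 0.002165, 0.002121 and 0.002076 of the summed PINCH genes in libraries 1, 2 and 3. The same setting gives 0.0007668, 0.0008028 and 0.0007719 of the summed parvins. The setting lies above the fragments counted in each library, but is not an upper limit for a library in which Ilk had fragments.

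This value of Ilk stands beside an overlap in the annotation. Ilk lies on the plus strand of GRCm38 at chr7:105736592-105742925, and 89.7% of its 2744 exon bases are also exon bases of a gene on the opposite strand. Taf10, which encodes a subunit of the TFIID complex, covers 2106 of them and Rrp8 covers 355. Taf10 has an annotated isoform with an exon of 3671 nt that spans every annotated exon of Ilk except those at its start. Of 12 annotated isoforms of Ilk, 10 lie entirely within exons of these genes, and so do all 1644 coding bases. The first 60 bases of the last coding exon of Ilk, given 5′ to 3′, show such a stretch, with bases inside the Taf10 exon in capitals.
Ilk (chr7:105742513-105742572, plus strand): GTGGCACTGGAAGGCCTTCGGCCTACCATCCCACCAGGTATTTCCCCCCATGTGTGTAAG

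Counted without strand, a fragment of this stretch belongs to both genes, and the default mode of HTSeq assigns such a fragment to neither. The sources used here give neither the mode nor the use of strand, so the part of the overlap in the level of Ilk was not tested. Taf10 had 31.7, 21.5 and 23.1 FPKM and Rrp8 had 28.3, 29.2 and 28.1 FPKM. Across protein-coding genes, 10 of the 349 genes with at least 80% of exon bases overlapped reached 1 FPKM (2.87%). The share was 30.7% of 293 genes with 50% to under 80% overlapped. It was 66.3% of 5906 genes with a smaller overlap and 44.1% of 15432 genes without overlap. These classes count overlap on either strand together, whereas the overlap of Ilk is with genes of the opposite strand only. The classes also hold different genes, and an effect of overlap on the level was not tested. The FPKM of Ilk is given as listed and not as the level of its transcript.

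**Figure D3:**
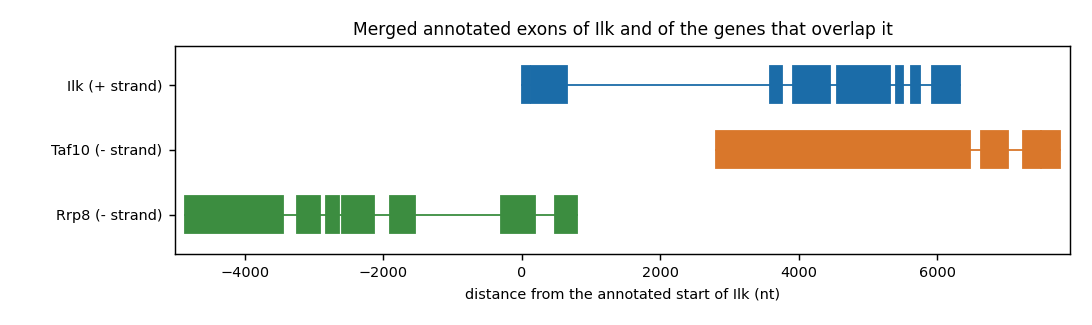
Merged annotated exons (boxes) of Ilk, Taf10 and Rrp8, drawn to scale by their distance in nt from the annotated start of Ilk, with lines for introns. The long Taf10 box spans the right-hand exons of Ilk, and Rrp8 covers parts of the left-hand ones.

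Of the 45 genes, 16 share exon bases with another gene and 4 share more than 25%, namely Ilk, Itgam, Itga10 and Vcl. The values of Itgb1, Itga5, Itga6, Itgb5, Flna and Fermt2 rest on exons that no other annotated gene overlaps. Itgb5 (6.48%) and Itga6 (4.46%) share 75-nt words with other genes, and Itgb1, Itga5, Flna and Fermt2 share 0%.

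The gene length behind the deposited FPKM is the mean over annotated isoforms, apart from Pxn, where the mean of 1813 nt did not give whole fragments in every library. For Pxn, 3 lengths gave whole fragments, and the one nearest the mean, 1920 nt, was used. All 45 genes have several isoforms. Their longest isoform exceeded the length used by a median factor of 2.12, against 1.72 for all genes with at least 1 FPKM. The factor ranged from 1.14 for Bcar1 and Itgb3 to 5.05 for Tln1 among the genes above 1 FPKM, so the longest isoform reorders them. Itgb1 and Zyx stayed highest, at 245.5 and 159.0 FPKM. Some ratios kept their direction but moved by over 1.5 times with the longest isoform. The log2 ratio of Tln1 to Tln2 went from 4.73 to 3.55, of Vcl to Tln1 from -1.87 to -0.25, of Fermt2 to Fermt3 from 6.92 to 5.78 and of Ptk2 to Ptk2b from 7.84 to 7.01.

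**Figure D4:**
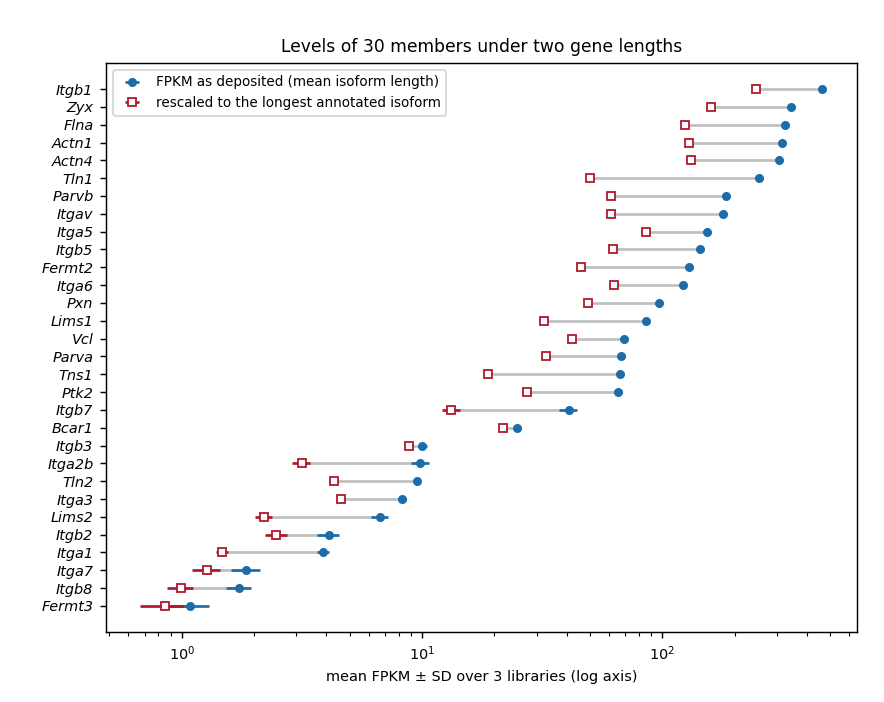
Mean FPKM ± SD over 3 libraries, on a log axis, of the 30 genes with at least 1 FPKM, as deposited (filled circles) and rescaled to the longest annotated isoform (open squares). The shift is large for Tln1, Tns1, Itga2b and Itgb7 and small for Bcar1 and Itgb3.

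The spread between libraries was set beside counting error for the 35 genes with at least 30 fragments. A chi-square statistic of their fragments exceeded its 95% limit of 5.99 in 3 of them (8.57%), against 9.49% of 13644 genes of the whole table. The share is near that of all genes. The 3 genes were Flna (8.47), Itgb7 (7.47) and Ptk2 (6.39). For Itgb7 the fragments were 548, 448 and 522, lowest in library 2, and for Ptk2 they were 1926, 1770 and 1760, highest in library 1. Flna had 14888, 14870 and 15161 fragments, and its coefficient of variation was only 1.68%, against 0.817% from counting error. Among the 30 genes above 1 FPKM, the coefficient of variation had a median of 2.28% and ranged from 0.148% for Itgav to 20.8% for Fermt3.

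**Figure D5:**
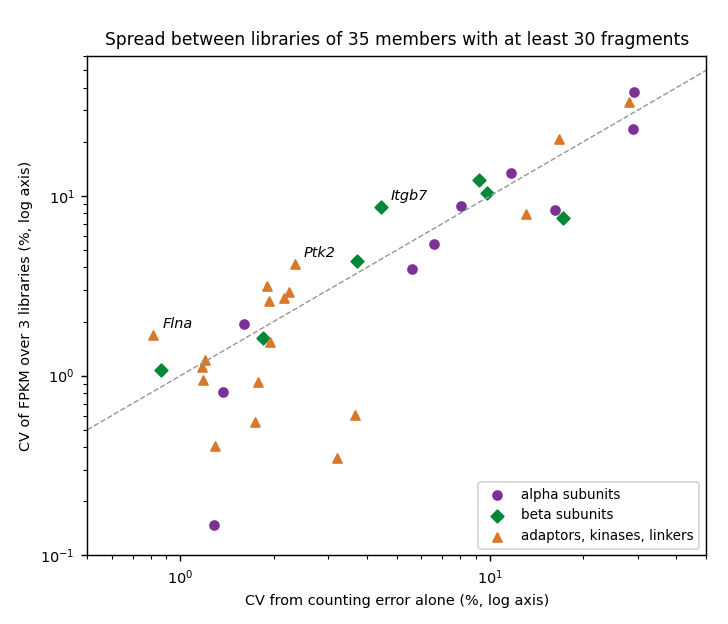
Coefficient of variation of FPKM over 3 libraries against that from counting error alone, both in percent on log axes, for 35 genes by class, with a dashed line where they are equal. Genes lie on both sides of the line, 18 above it and 17 below, and the 3 named genes are among those above.

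Further genes of the adhesion machinery were taken from lists chosen with earlier results of these data known, so their shares are a description only. Of 64 further adhesion genes, 60 (93.8%) had at least 1 FPKM, with a median of 57.1 FPKM. The share was 23.2% of all genes listed and 49.2% of protein-coding genes. The highest were Bsg (477.2 ± 11.0 FPKM, SD, n = 3), a glycoprotein that associates with integrins, Cav1 (460.0 ± 1.81), the caveolae protein, and Slc3a2 (453.7 ± 6.07), the CD98 heavy chain that binds beta tails. Among 11 paralogs, 7 (63.6%) reached the limit, among them Flnc (102.1 FPKM) and Tns2 (93.8). Parvg, the parvin known from blood cells, had 4.68 FPKM, the muscle actinin Actn2 was listed at 0, and Itgad had 0.0542 FPKM.

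Of 30 integrin ligands listed, 20 (66.7%) had at least 1 FPKM, against 49.2% of protein-coding genes, with a median of 51.6 FPKM. Fn1, the ligand of Itga5/Itgb1, had 4278, 4421 and 4433 FPKM. Spp1, the RGD ligand osteopontin, had 3568 ± 16.2 FPKM (SD, n = 3), and Col1a2, a chain of collagen I, had 1542 ± 11.7. Vtn, the gene of vitronectin, had 1 fragment, in library 1. Of the alpha subunits that bind collagen, Itga1 alone reached 1 FPKM, at 3.87 FPKM.

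The log2 ratios within libraries were tested by flipping their signs, and this exact two-sided permutation test gave p = 0.25 for each of the 13 ratios tested (n = 3), and 0.25 after Benjamini-Hochberg adjustment. No smaller p is possible with 3 libraries.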

How the data were processed

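UMI-RNAseq was measured in 3 NIH3T3 libraries of 1 condition. The authors found UMIs with UMI-tools 1.0.0, mapped reads with HISAT2 (2.0.4 in the submitters' processing notes), removed duplicates with equal position and UMI, counted with HTSeq 0.6.1 and deposited FPKM values in 2 tables that hold the same values. The build and annotation used for counting are not given in the sources used here. No value column was left unused.

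With Python 3.11.15, numpy 2.4.6, pandas 2.3.3 and scipy 1.17.1, library totals were read from single-fragment steps in genes with 1 isoform of GENCODE M21 (GRCm38), which holds 55480 of the IDs. With mean isoform lengths, 99.1% of 26193 genes above 0 gave whole fragments within 0.01. Recovery and the chi-square statistic (genes with at least 30 fragments) were tested on simulated data. Figures used matplotlib 3.10.9. Intervals and floors cover counting error only.

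All 45 genes were named, with the highest 3 of each further list and the highest and lowest of each marker list. Some genes under this rule are not reported here. Other list members, and genes that overlap, were named after their values were seen. Members and lists were chosen with earlier results of these data known. Ratios were compared with exact permutation tests. Alternatives were each library left out, other limits, TPM, median, median-of-ratios scaling, pseudocounts, longest isoform and no length. AmpFISH images were not analysed here.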

Additional observations from a re-analysis of the deposited data

How the results depend on the processing

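The alternatives gave 349 values in all. Of them, 308 kept the direction of a ratio, the level within its SD or the count within 1.5 times, 37 moved and 4 reversed. Part of the 308 was fixed in advance. With 3 libraries, leaving out 1 cannot move a mean level beyond its SD, so those values do not measure robustness. The orders of subunits were judged only by how many neighbours were apart. With the longest isoform this went from 6 to 5 for alpha and from 5 to 4 for beta, which was counted as kept. The alpha order itself changed there, and Itgb8 dropped out of the beta order. Of the moved values, 36 were levels with the longest isoform, and the other was the number of allowed pairs, which rose from 10 to 20 with any value above 0 as the limit. That number was 7 to 12 with limits from 0.5 to 5 FPKM, and 7 with the longest isoform and a limit of 2 FPKM, chosen after seeing the data. The 4 reversed log2 ratios concern genes of nearly equal level. With the longest isoform, the summed partners over Itgb1 gave -0.173, Itgav over its other partners gave -0.246 and Actn1 over Actn4 gave -0.027. Actn1 over Actn4 also gave -0.081 for fragments not divided by length. Each alternative changes only the gene length here. Leaving out 1 replicate in turn reversed 0 of the 13 ratios. This outcome was also fixed, because each ratio had the same direction in all 3 libraries. Adding the same pseudocount to both sides cannot turn such a ratio over either, so the directions kept with pseudocounts were fixed too. No paired analysis was possible because a single group was measured, so samples could not be paired between groups. Depth limits the genes below 1 FPKM most, since Ptk2b, Itga8 and Itgax rest on 38, 29 and 9 fragments in all.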
